A study of Mus musculus with 24 samples.

Results

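Lysosomal hydrolases and membrane proteins, without the cathepsins, were examined as a group of 37 genes in mouse cortex. The genes were taken from a named list and matched by symbol to the deposited table of counts, which held 24421 genes. All 37 were found, and all 37 passed the filter on low counts. By role, 10 act in sphingolipid breakdown, 7 in glycosaminoglycan breakdown and 5 on glycoproteins or glycogen. A further 6 are proteases, thioesterases or lipases, 8 are membrane or cholesterol-handling proteins, and 1 is progranulin.

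The study profiled cortical RNA of 24 mice aged 7.5 months, 6 for each of 4 genotypes, with 1 library a mouse. Every mouse carried 5xFAD, a set of human transgenes that causes amyloid plaques, so the control group (WT) is wild type at Trem2 and Plcg2 but carries 5xFAD as well. The other groups lacked Trem2 (Trem2KO), lacked both copies of Plcg2 (Plcg2KO) or were labelled as carrying 1 knockout copy of Plcg2 (Plcg2HET). Plcg2KO was made up of 4 males and 2 females, and each other group of 3 males and 3 females. Mice without 5xFAD were not analysed here, and the labels do not name the exons removed in either knockout.

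Lysosomes are acidic organelles in which hydrolases take apart lipids, sugars and proteins. Most of these enzymes are made in the endoplasmic reticulum and sent to the lysosome by the mannose 6-phosphate tag, and many of their genes are bound at E-box motifs by the transcription factor TFEB. In brain all cell types hold lysosomes, and phagocytic microglia are rich in them. TREM2 is a surface receptor by which microglia sense lipids, and PLCG2 is a phospholipase that relays its signal. Inherited loss of many of the enzymes listed here causes storage diseases with damage to neurons.

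Libraries held between 36.3 and 83.0 M counts (M, 1e6). Plcg2 had a median of 12.6 CPM (counts per 1e6 counts, scaled by TMM) in WT and at most 1.20 CPM in Plcg2KO. In the libraries labelled Plcg2HET its median was 11.6 CPM, and the log2 fold change against WT was 0.02 (SE 0.17), so the level of this gene does not bear out the label. Trem2 had a median of 80.9 CPM in WT, 5.97 CPM in Trem2KO and 17.9 CPM in Plcg2KO. The ribosomal RNA precursor Rn45s took over 5% of counts in 3 libraries, Plcg2HET F3, WT F1 and Plcg2HET F1. Summed markers of astrocytes stood at 5341 CPM or more in every library. Those of excitatory neurons ran from 4283 to 6215 CPM in WT and 6050 to 6298 in Trem2KO. In Plcg2KO they ran from 5134 to 6138 CPM, and in Plcg2HET from 5672 to 7246. Markers of inhibitory neurons summed to 707 to 979 CPM in WT and 881 to 977 in Trem2KO. They summed to 966 to 1106 CPM in Plcg2KO and 674 to 1060 in Plcg2HET. Of 15 microglial markers, 14 were called lower in Plcg2KO and 13 in Trem2KO against WT. Their summed level was 963 to 1568 CPM in WT, 674 to 953 in Trem2KO, 543 to 861 in Plcg2KO and 966 to 1869 in Plcg2HET. Against WT, markers of border-associated macrophages and meningeal fibroblasts were called higher or not called. Of 8 macrophage markers, 4 were called higher in Plcg2KO, 5 in Trem2KO and 5 in Plcg2HET, and of 7 fibroblast markers 6, 5 and 4. The macrophage markers summed to 18.8 to 26.9 CPM in WT, 32.6 to 44.9 in Trem2KO, 30.7 to 35.0 in Plcg2KO and 24.8 to 38.0 in Plcg2HET. The fibroblast markers summed to 107 to 130, 161 to 179, 152 to 167 and 132 to 165 CPM in the same order. Of 7 endothelial markers, 4 were called lower in Plcg2KO against WT and 3 against Trem2KO, with sums of 95.8 to 122 CPM in Plcg2KO, 116 to 201 in WT and 116 to 160 in Trem2KO. The part of these populations in the results on the lysosomal genes was not tested.

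The lysosomal genes differed widely in level. Per kilobase of summed exon length, the mean over all libraries ran from 1.89 CPM per kb in Sgsh, a heparan sulfatase, to 760 CPM per kb in Psap. Psap encodes prosaposin, the precursor of the saposins that help hydrolases reach their lipids. Lamp1, an abundant glycoprotein of the lysosomal membrane, followed at 184 CPM per kb. Gaa, the acid alpha-glucosidase that breaks down glycogen, stood at 96.0 CPM per kb, and Lgmn, the asparaginyl protease legumain, at 92.7. Summed over the 37 genes, the median library held 5152 CPM in WT, 5641 in Trem2KO, 5068 in Plcg2KO and 5353 in Plcg2HET, and the ranges overlapped between every genotype and WT.

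Promoter windows were read for 32 of the 37 genes, from RefSeq on build GRCm38.p6, each covering 250 bases before and 50 bases after an annotated start. The genes with no window in the table were Aga, Asah1, Galns, Plbd2 and Npc1. Both strands were searched for the E-box CACGTG, which reads the same on either strand, and for GAGGAAGT, a motif of the myeloid factor PU.1. The E-box was in 10 of the 35 windows of these genes (28.6%), against 7.15% of 32851 windows of all genes. GAGGAAGT was in 2 of the 35 (5.71%), against 3.2% of all windows. The next lines show 4 windows, with motif letters in capitals, chosen because these genes recur in the results. Naglu has 1 E-box, Lamp1 has 4 within the last 61 bases before the start, Gusb has the PU.1 motif, and Cd68 has neither.
Naglu, chr11:101069844-101070143, plus strand: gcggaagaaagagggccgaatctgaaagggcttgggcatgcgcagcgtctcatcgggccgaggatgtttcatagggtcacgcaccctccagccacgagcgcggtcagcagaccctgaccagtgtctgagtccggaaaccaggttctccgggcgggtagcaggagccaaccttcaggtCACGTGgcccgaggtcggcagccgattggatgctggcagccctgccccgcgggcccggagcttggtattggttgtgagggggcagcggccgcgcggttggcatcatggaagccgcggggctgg
Lamp1, chr8:13158911-13159210, plus strand: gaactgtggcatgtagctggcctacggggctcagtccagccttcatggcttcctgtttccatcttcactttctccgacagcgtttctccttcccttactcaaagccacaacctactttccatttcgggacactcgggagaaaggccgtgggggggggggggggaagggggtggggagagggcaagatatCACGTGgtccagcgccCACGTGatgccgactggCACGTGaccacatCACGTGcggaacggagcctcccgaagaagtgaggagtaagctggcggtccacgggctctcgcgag
Gusb, chr5:130003000-130003299, minus strand: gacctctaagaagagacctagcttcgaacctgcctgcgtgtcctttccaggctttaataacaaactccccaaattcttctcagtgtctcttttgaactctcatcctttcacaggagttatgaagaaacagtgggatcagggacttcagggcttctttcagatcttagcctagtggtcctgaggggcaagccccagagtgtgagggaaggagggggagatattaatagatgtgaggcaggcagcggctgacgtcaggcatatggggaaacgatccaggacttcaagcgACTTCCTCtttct
Cd68, chr11:69666121-69666420, minus strand: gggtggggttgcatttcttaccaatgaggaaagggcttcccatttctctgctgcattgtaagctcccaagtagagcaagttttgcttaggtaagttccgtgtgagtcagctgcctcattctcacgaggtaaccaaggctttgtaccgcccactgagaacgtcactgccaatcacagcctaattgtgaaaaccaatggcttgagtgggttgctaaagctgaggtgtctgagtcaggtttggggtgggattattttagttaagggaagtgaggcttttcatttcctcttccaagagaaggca
A match describes the letters of a window only. Of the 10 genes with an E-box, 2 were called lower in Plcg2KO than in WT. Of the 22 with a window but no E-box, 8 were, against 7.63% of all genes tested. The median log2 fold changes of these sets were -0.15 and -0.20. In Trem2KO, 0 of the 10 fell and 1 rose, and 6 of the 22 fell and 1 rose (8.16% and 7.56% of all genes). The part of the motif in these counts was not tested.

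In Plcg2KO cortex, 11 of the 37 lysosomal genes were lower than in WT and 0 were higher (edgeR's quasi-likelihood test, Benjamini-Hochberg adjusted p under 0.05 over 16316 genes). Over all genes tested, 7.63% were called lower and 5.44% higher. The 11 were led by Cd68, Gusb and Naglu and came from every role. The median log2 fold change over the 37 genes was -0.18, against -0.0035 over all genes. In 9 of the 37, every Plcg2KO library lay below every WT library, against 4.75% of all genes, and in 0 did every library lie above, against 3.86%. In bulk tissue, fewer cells of a type and less RNA per cell cannot be told apart.

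Cd68, a heavily glycosylated lysosomal membrane protein of macrophages and microglia, showed the largest change. Its lowest, median and highest levels were 37.9, 66.8 and 85.2 CPM in WT and 13.7, 21.5 and 27.6 CPM in Plcg2KO. The groups did not overlap, and the mean in Plcg2KO, not adjusted for sex, was 31.8% of that in WT. The log2 fold change was -1.50 (SE 0.13, adjusted p = 1.45e-08). The other gene called among membrane and cholesterol-handling proteins was Npc2, the soluble protein that passes cholesterol to NPC1. Npc2 ran through 79.6, 106 and 139 CPM in WT (lowest, median, highest) and 53.6, 74.2 and 87.1 CPM in Plcg2KO, with overlap between the groups (log2 fold change -0.48, SE 0.12, adjusted p = 0.00703). Lamp1, with a log2 fold change of -0.09 (95% interval -0.23 to 0.05), Lamp2 at -0.07 (-0.30 to 0.16), Npc1 at 0.18 (-0.01 to 0.37) and the trafficking receptor gene Scarb2 at 0.10 (-0.14 to 0.33) did not pass the test. Neither did Mcoln1, a lysosomal calcium channel, at -0.15 or Cln3, a membrane protein lost in Batten disease, at -0.21.

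Among enzymes of glycosaminoglycan breakdown, 3 of 7 fell. Gusb, beta-glucuronidase, lay at 24.6, 37.5 and 46.6 CPM in WT and at 13.3, 14.2 and 17.9 CPM in Plcg2KO (log2 fold change -1.16, SE 0.12, adjusted p = 2.72e-07). Naglu, which removes N-acetylglucosamine from heparan sulfate, lay at 12.9, 17.3 and 23.2 CPM in WT and 5.99, 9.28 and 11.0 CPM in Plcg2KO (-0.89, SE 0.19, adjusted p = 0.00168). Neither gene overlapped between the groups. Idua, the iduronidase lost in Hurler syndrome, overlapped, with 11.8, 14.6 and 16.2 CPM in WT and 9.80, 11.0 and 12.5 CPM in Plcg2KO (-0.41, SE 0.09, adjusted p = 0.00427). The 4 others did not pass the test, and they differed in sign. The sulfatase genes Galns and Sgsh stood at -0.30 and 0.03, while Arsb, another sulfatase gene, stood at 0.30 and Ids, iduronate sulfatase, at 0.37 (adjusted p = 0.0933).

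Of the 10 genes of sphingolipid breakdown, 2 fell. Hexa, the alpha subunit of the hexosaminidase that cleaves GM2 ganglioside, lay at 75.8, 104 and 118 CPM in WT and 52.3, 58.8 and 66.5 CPM in Plcg2KO, without overlap (log2 fold change -0.71, SE 0.09, adjusted p = 4.93e-06). Asah1, acid ceramidase, also showed no overlap, with at least 72.05 CPM in WT and at most 68.2 CPM in Plcg2KO, but the change was small (-0.25, SE 0.07, adjusted p = 0.0215). The other 8 lay between -0.27 in Glb1, lysosomal beta-galactosidase, and 0.03 in Psap. Between them were the sialidase gene Neu1 (-0.20), the activator Gm2a (-0.18), the galactosidases Gla (-0.16) and Galc (-0.14), the sphingomyelinase gene Smpd1 (-0.11) and the sulfatase gene Arsa (-0.09). Psap, the most abundant member per kilobase, ran through 1424, 1906 and 2476 CPM in WT and 1660, 2018 and 2169 CPM in Plcg2KO, and the ranges overlapped.

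Grn, the precursor of the granulins that hydrolases depend on, fell from 92.7, 108 and 140 CPM in WT to 59.2, 64.7 and 81.1 CPM in Plcg2KO, without overlap (log2 fold change -0.67, SE 0.10, adjusted p = 5.81e-05). Man2b1, alpha-mannosidase, was the 1 gene of 5 on the glycoprotein and glycogen route to fall. It lay at 78.8, 94.99 and 116 CPM in WT and 61.8, 68.9 and 75.0 CPM in Plcg2KO (-0.46, SE 0.10, adjusted p = 0.00262). In the last class 2 of 6 genes fell, Pla2g15 and Lgmn. Pla2g15, a lysosomal phospholipase, lay at 34.1, 38.5 and 44.1 CPM in WT and 21.0, 29.9 and 31.1 CPM in Plcg2KO (-0.44, SE 0.11, adjusted p = 0.00802). Lgmn lay at 155, 197 and 223 CPM in WT and 131, 141 and 154 CPM in Plcg2KO (-0.40, SE 0.09, adjusted p = 0.00189). Man2b1, Pla2g15 and Lgmn showed no overlap. The beta-mannosidase gene Manba (-0.19), the fucosidase gene Fuca1 (-0.22), Aga (0.08), Gaa (0.27), Ppt1 (-0.10), Tpp1 (0.00), Lipa (-0.22) and Plbd2 (0.04) were not called. Cd68, Gusb, Hexa and Grn were called under all 12 alternatives of the fit other than leaving out a library, and 10 of the 11 were called with each library left out, Asah1 being the exception (adjusted p = 0.0525, 0.0661 and 0.0549, edgeR, without WT F3, Plcg2KO F1 and Plcg2KO F2). With offsets for GC content and gene length the split was 13 lower and 3 higher, the higher genes being Gaa (0.42), Arsb (0.29) and Ids (0.22). The lower genes then also held Lamp2 (-0.25, adjusted p = 0.00888) and Galc (-0.24, adjusted p = 0.00699), not called in the main fit. Females alone gave 6 lower and 2 higher, Arsb (0.67, adjusted p = 0.0484) and Ids (0.74, adjusted p = 0.0415), and males alone gave 5 lower. The Spearman correlation of fold change with GC content was -0.242 across the 37 genes and -0.33 across all genes.

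**Figure D1:**
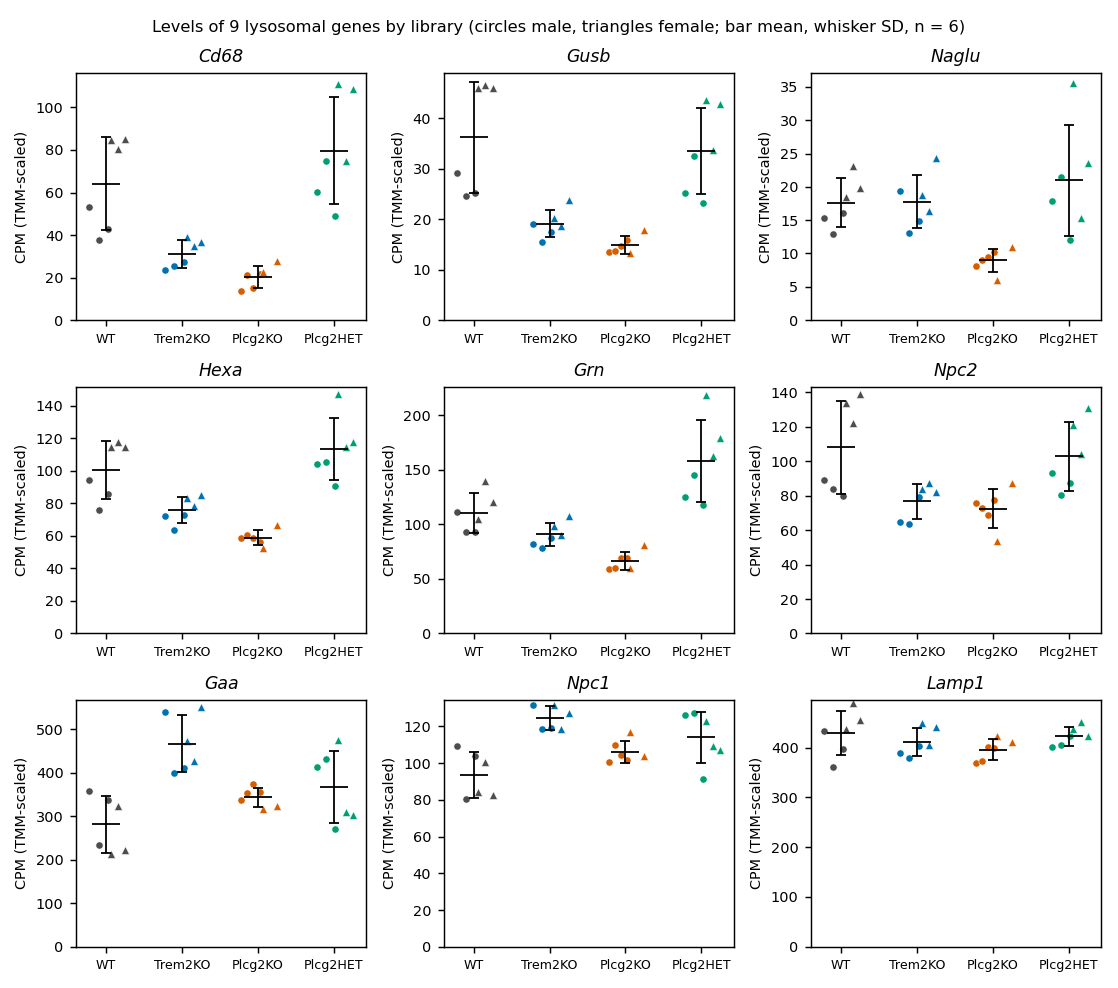
Levels of 9 lysosomal genes in each library, as TMM-scaled CPM on axes that start at 0. Circles are males, triangles females, bars the mean and whiskers the SD of 6 libraries. Cd68 in Plcg2KO sits at 13.7 to 27.6 CPM, below all WT libraries, and Gaa in Trem2KO sits at 400 to 550 CPM, above them.

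**Figure D2:**
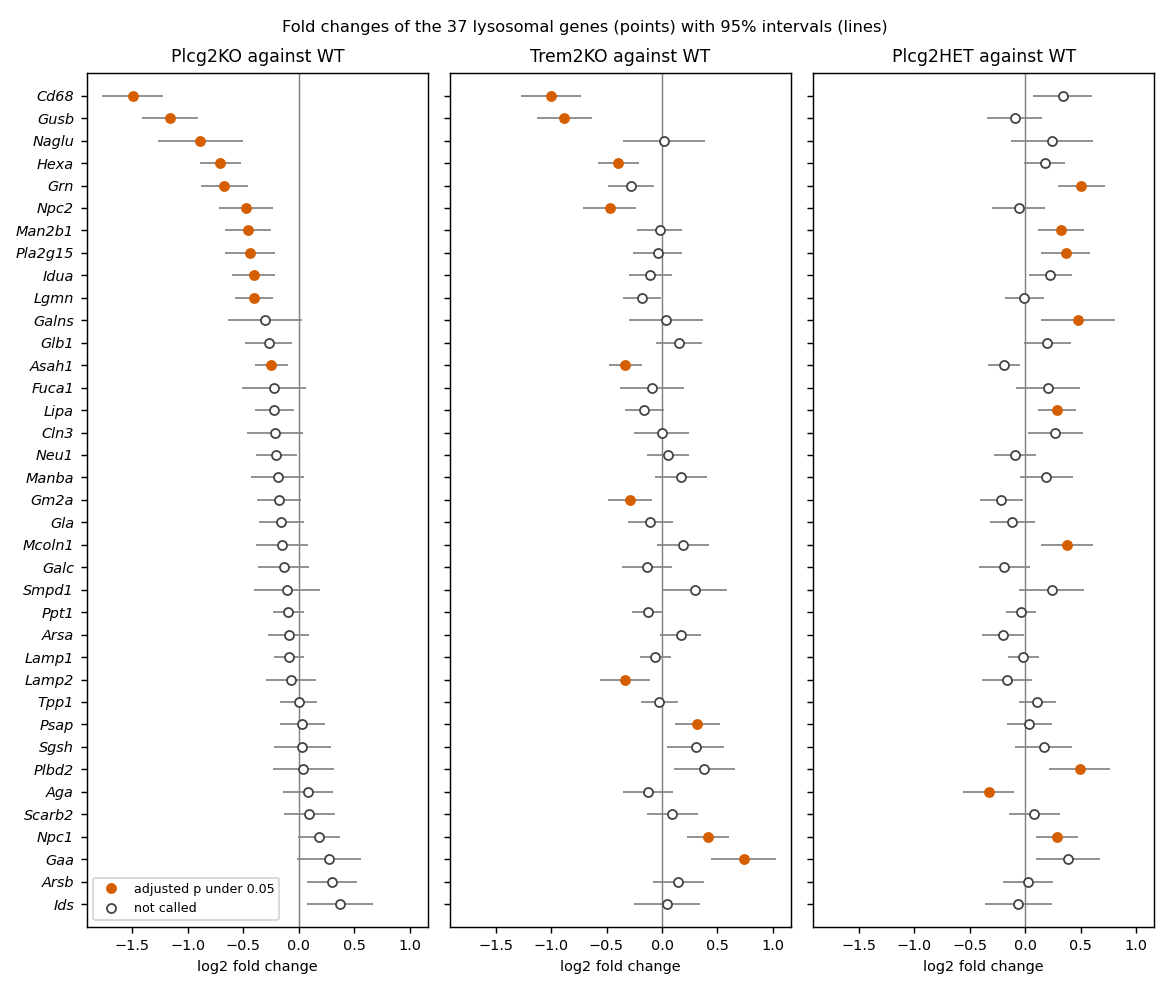
Log2 fold changes of the 37 genes against WT (points) with 95% intervals (lines), ordered by the change in Plcg2KO, with Cd68 at the top and Ids at the bottom. Filled points have an adjusted p under 0.05, which holds for 11 genes in Plcg2KO, 10 in Trem2KO and 9 in the libraries labelled Plcg2HET.

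In Trem2KO cortex, 7 of the 37 genes were lower than in WT and 3 were higher, against 8.16% and 7.56% of all genes tested. Cd68, Gusb, Npc2 and Hexa fell, while Gaa, Npc1 and Psap rose. The median log2 fold change over the 37 genes was -0.0252, against -0.024 over all genes. Every Trem2KO library lay below every WT library in 3 genes (5.23% of all genes) and above in 3 (5.8% of all genes). This comparison uses the same WT libraries as the comparison with Plcg2KO, so the fold changes of both share the errors of those libraries.

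Cd68 lay at 23.4, 31.1 and 39.1 CPM in Trem2KO, and the highest of these just passed the WT minimum of 37.9 CPM (log2 fold change -1.001, SE 0.13, adjusted p = 8.93e-06). Gusb lay at 15.6, 18.9 and 23.7 CPM, below all WT libraries (-0.88, SE 0.12, adjusted p = 1.96e-05). Npc2 lay at 63.3, 80.5 and 87.3 CPM (-0.47, SE 0.12, adjusted p = 0.0062) and Hexa at 63.7, 75.7 and 85.4 CPM (-0.39, SE 0.09, adjusted p = 0.0037), both overlapping WT. Asah1 (-0.33), the membrane glycoprotein gene Lamp2 (-0.33) and the ganglioside activator Gm2a (-0.29) were also called. Grn stood at 78.1, 88.8 and 108 CPM and did not pass the test (-0.28, adjusted p = 0.0634), but was called lower with DESeq2 (adjusted p = 0.0445), without libraries rich in Rn45s (0.0383), with offsets for GC content and length (0.0052) and on the 2 genotypes alone (0.0153). Naglu stood at 13.1, 17.6 and 24.3 CPM, almost the WT range (0.02, 95% interval -0.35 to 0.39), and so did Man2b1 at 77.6, 94.1 and 113 CPM (-0.02, -0.23 to 0.18) and Pla2g15 at 32.2, 37.9 and 41.8 CPM (-0.04, -0.26 to 0.18). Idua at 12.3, 13.5 and 14.9 CPM and Lgmn at 153, 167 and 193 CPM were not called.

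Gaa rose from 212, 279 and 359 CPM in WT to 400, 450 and 550 CPM in Trem2KO, without overlap (log2 fold change 0.74, SE 0.14, adjusted p = 0.000814). Npc1, the membrane protein that exports cholesterol from the lysosome, rose from 80.3, 92.4 and 109 CPM to 118, 123 and 132 CPM, also without overlap (0.41, SE 0.09, adjusted p = 0.00303). Psap lay at 2224, 2393 and 2643 CPM in Trem2KO and overlapped WT (0.32, SE 0.10, adjusted p = 0.0288). Sgsh lay above WT in every library, at 8.67 CPM or more against at most 8.64, and was not called (0.30, adjusted p = 0.0977). None of the 6 proteases, thioesterases and lipases passed the test, with log2 fold changes from -0.18 to 0.38. Among them, Plbd2 was called higher with DESeq2 (adjusted p = 0.0379). In edgeR, Plbd2 was also called with offsets for GC content and length (0.0235) and on the 2 genotypes alone (0.00666). The fit on the 2 genotypes also called Sgsh (adjusted p = 0.0365), Smpd1 (0.0198) and Mcoln1 (0.0492) higher, and Grn lower. The 27 genes not called lay between -0.28 and 0.38 on the log2 scale. Calls of Asah1, Cd68, Gaa, Gusb, Hexa, Npc1 and Npc2 held with each library left out. Gm2a was lost on leaving out WT M1, M3 or F1 or Trem2KO M1, F1, F2 or F3 (log2 fold change -0.30 to -0.23, adjusted p up to 0.131), Lamp2 on leaving out WT M1, M2, F1 or F3 or Trem2KO M1, M3, F1, F2 or F3 (-0.34 to -0.29, up to 0.109), and Psap on leaving out WT M2, F1 or F3 or Trem2KO F1, F2 or F3 (0.25 to 0.31, up to 0.0894). Asah1 and Psap were also lost with offsets for GC content and length (adjusted p = 0.211 and 0.0714), and males alone gave 0 calls. The Spearman correlation of fold change with GC content across the 37 genes was 0.382, against 0.347 over all genes.

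Plcg2KO was compared directly with Trem2KO. Of the 37 genes, 13 were lower in Plcg2KO and 0 were higher, against 8.82% and 7.63% of all genes, and the median log2 fold change was -0.26, against 0.0043 over all genes. Naglu had the largest difference, at -0.91 (SE 0.18, adjusted p = 0.00511), with 13.1 CPM as the lowest Trem2KO level and 11.0 CPM as the highest Plcg2KO level. Man2b1 stood at -0.44 (SE 0.10, adjusted p = 0.01) and Gaa at -0.46 (SE 0.14, adjusted p = 0.0298). Glb1 lay at 31.0, 36.0 and 41.0 CPM in Trem2KO and 23.8, 26.5 and 28.6 CPM in Plcg2KO (-0.42, SE 0.10, adjusted p = 0.0123). These 4 genes did not overlap between the knockouts. In 13 of the 37 genes every Plcg2KO library lay below every Trem2KO library, and in 1 above. The share of all genes without overlap was not counted for this comparison. Cd68 (-0.50, SE 0.13, adjusted p = 0.0169), Grn (-0.39, SE 0.10, adjusted p = 0.0171) and Hexa (-0.31, SE 0.09, adjusted p = 0.0242) were lower in Plcg2KO with overlap, and Pla2g15 was lower without it (-0.40, SE 0.11, adjusted p = 0.02). Manba, Mcoln1, Idua, Psap and Arsa, a sulfatase of sulfatides, made up the rest of the 13. Gusb (-0.28, 95% interval -0.53 to -0.03, adjusted p = 0.105) and Npc2 (0.00, -0.24 to 0.24) were not called.

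Fold changes in this comparison followed the GC content of the transcripts. Across the 37 genes, which are not independent replicates, the Spearman correlation was -0.748, and across 15693 tested genes it was -0.649. With offsets for GC content and length, 6 genes were called, namely Naglu (-0.58), Manba (-0.42), Cd68 (-0.41), Man2b1 (-0.39), Glb1 (-0.31) and Galc (-0.23), and Gaa (-0.15) and Grn (-0.17) were not. Of the 13, Glb1, Man2b1 and Naglu were called with each library left out. The count fell to 5 without Trem2KO M1 or F3, 7 without Trem2KO M3 or F1, 7 without Plcg2KO M1, 4 without Plcg2KO F1 and 6 without Plcg2KO F2. Each sex alone gave 0 calls, and the fit on these 2 genotypes gave 21 lower and 2 higher, Lamp2 (0.25) and Ids (0.34).

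**Figure D3:**
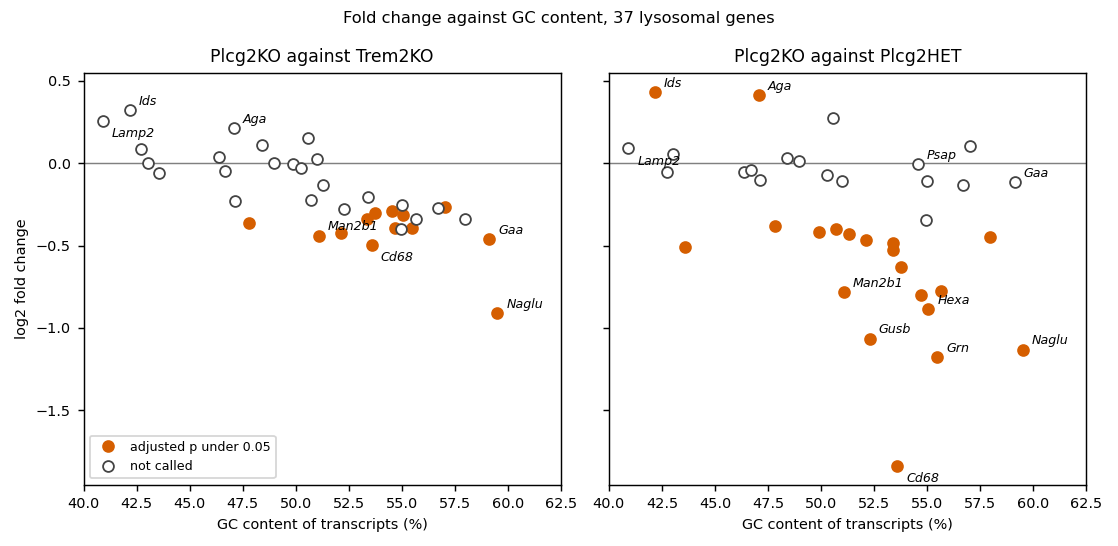
Log2 fold change (vertical axis) of the 37 genes against the GC content of their transcripts in percent (horizontal axis), for Plcg2KO against Trem2KO (left) and Plcg2KO against Plcg2HET (right). Filled points have an adjusted p under 0.05. On the left the points slope downward, with a Spearman correlation of -0.748, and Naglu is lowest at -0.91, and on the right Cd68 is lowest at -1.84.

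In the libraries labelled Plcg2HET, 8 of the 37 genes were higher than in WT and 1 was lower, against 10.9% and 7.13% of all genes tested. Against the same WT libraries the median log2 fold change was 0.17, with -0.0064 over all genes. Grn rose most, to 118, 154 and 218 CPM (log2 fold change 0.51, SE 0.10, adjusted p = 0.00168). Plbd2, a phospholipase B-like protein, went from 57.5, 73.9 and 83.4 CPM in WT to 70.0, 101 and 134 CPM (0.49, SE 0.13, adjusted p = 0.013). Lipa, the acid lipase that frees cholesterol from its esters, went from 21.5, 26.8 and 31.8 CPM to 29.1, 32.8 and 36.9 CPM (0.29, SE 0.08, adjusted p = 0.0191). All 3 overlapped WT, as did every other lysosomal gene, and the share of all genes that did so was not counted. Mcoln1 went from 53.8, 62.3 and 65.7 CPM to 54.1, 84.0 and 97.7 CPM (0.37, SE 0.11, adjusted p = 0.0238). Pla2g15 reached 37.9, 49.2 and 62.7 CPM (0.37, SE 0.11, adjusted p = 0.0202) and Man2b1 89.7, 120 and 152 CPM (0.32, SE 0.10, adjusted p = 0.0269). Galns (0.47) and Npc1 (0.29) were also higher, and Aga, which removes the sugar from asparagine, was lower (-0.33). Cd68 stood at 49.0, 74.7 and 111 CPM and Hexa at 90.6, 110 and 147 CPM, and neither passed the test. Cd68 was called higher with DESeq2 (0.35, adjusted p = 0.0458) and, in edgeR, with offsets for GC content and length (0.36, adjusted p = 0.00635). Macrophage and fibroblast markers were also higher in these libraries, and their part was not tested. The calls rested on few libraries. Each sex alone gave 0 calls and the fit on the 2 genotypes gave 1. Without the 3 libraries rich in Rn45s 0 genes were called, with Grn at 0.36 (adjusted p = 0.0526), and the count was 3 without WT M2, WT F1, Plcg2HET M2 or Plcg2HET F1, 5 without Plcg2HET M1 and 14 without Plcg2HET M3. Grn was called with each library left out, Lipa was lost without WT M2 (adjusted p = 0.06), and Plbd2 was lost without Plcg2HET M2 or F1 (adjusted p = 0.0512 and 0.0538). Fold changes correlated with GC content at a Spearman value of 0.546 across the 37 genes and 0.344 across all genes. With offsets Aga was not called (-0.13, adjusted p = 0.409), while Arsa (-0.34, adjusted p = 0.00315) and Neu1 (-0.23, adjusted p = 0.00799) were called lower.

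Plcg2KO was also compared with the libraries labelled Plcg2HET. There 18 of the 37 genes were lower in Plcg2KO and 2 were higher, against 20.2% and 15% of all genes, and the median log2 fold change was -0.34, against -0.0048 over all genes. Cd68 stood at -1.84 (SE 0.13, adjusted p = 6.18e-10), with a highest level of 27.6 CPM in Plcg2KO and a lowest of 49.0 CPM in Plcg2HET. Grn stood at -1.18 (SE 0.11, adjusted p = 1.03e-08), Gusb at -1.07 (SE 0.12, adjusted p = 6.59e-07) and Hexa at -0.88 (SE 0.09, adjusted p = 9.78e-08). Man2b1 stood at -0.78 (SE 0.10, adjusted p = 3.52e-06) and Pla2g15 at -0.80 (SE 0.11, adjusted p = 7.78e-06). None of these 6 genes overlapped between the groups. In 10 of the 37 genes every Plcg2KO library lay below every Plcg2HET library, and in 1 above. Here too, the share of all genes without overlap was not counted. By role, the lower genes were 4 of 7 for glycosaminoglycans, 4 of 8 for membrane and cholesterol proteins, 4 of 6 proteases, thioesterases and lipases, 3 of 5 for glycoproteins and glycogen, 2 of 10 for sphingolipids, and Grn. The 2 higher genes were Aga (0.41, SE 0.11, adjusted p = 0.00638) and Ids (0.43, SE 0.15, adjusted p = 0.0237). Psap (-0.01, 95% interval -0.21 to 0.20) and Lamp1 (-0.07, -0.21 to 0.07) were not called. With each library left out 17 of the 20 calls held, and Fuca1, Plbd2 and Ids were lost without Plcg2HET M2 (adjusted p = 0.0857, 0.0562 and 0.0705). Under all 12 other alternatives 9 of the 20 held, and with offsets for GC content and length Aga (0.23, adjusted p = 0.0902) and Plbd2 (-0.11, adjusted p = 0.281) were among those lost. The offsets also called Arsa (0.40, adjusted p = 0.000562) and Arsb (0.29, adjusted p = 0.0174) higher, and Asah1 (-0.23, adjusted p = 0.006) and Lamp2 (-0.19) lower. Without libraries rich in Rn45s, Npc2, Manba, Fuca1, Plbd2, Cln3 and Ids were not called (edgeR, adjusted p 0.0637 to 0.136). Across the 37 genes the Spearman correlation of fold change with GC content was -0.537, against -0.508 over all genes. Fuca1 and Ids were also lost without Plcg2KO F1, Plcg2KO F2, Plcg2HET M1 or Plcg2HET F1 (adjusted p 0.0522 to 0.0619 and 0.0525 to 0.0705).

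Levels were also set beside the microglial markers, most of which fell in both knockouts. For each library the mean of log2(CPM + 0.5) over 15 microglial markers was subtracted from that of each lysosomal gene, as a description with no test. Relative to these markers, Cd68 and Gusb were lower in Plcg2KO than in WT in every library, by -0.70 and -0.32 on the log2 scale. Differences on this scale are between group means and are not adjusted for sex. Plcg2KO held 4 males and 2 females, and WT 3 and 3. Naglu (-0.04), Hexa (0.15) and Grn (0.18) overlapped WT on this scale. Every Plcg2KO library lay below every WT library on this scale in 0.313% of all genes tested. At the other end, 14 of the 37 genes were higher in every Plcg2KO library than in every WT library, from Lipa (0.64) to Ids (1.31), against 48.5% of all genes. The median difference was 0.69 over the 37 genes and 0.89 over all genes. In Trem2KO, 24 of the 37 were higher without overlap, Gaa most of all (1.41), against 35.7% of all genes, and 0 were lower without overlap, against 0.239%. The median difference there was 0.64 over the 37 genes and 0.65 over all genes, and Cd68 (-0.32) and Gusb (-0.20) overlapped. In the libraries labelled Plcg2HET, Grn was the 1 gene of the 37 without overlap (higher, 0.51), against 0.313% of all genes higher and 0.049% lower. A gene with no change in CPM moves up on this scale where the markers fall.

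**Figure D4:**
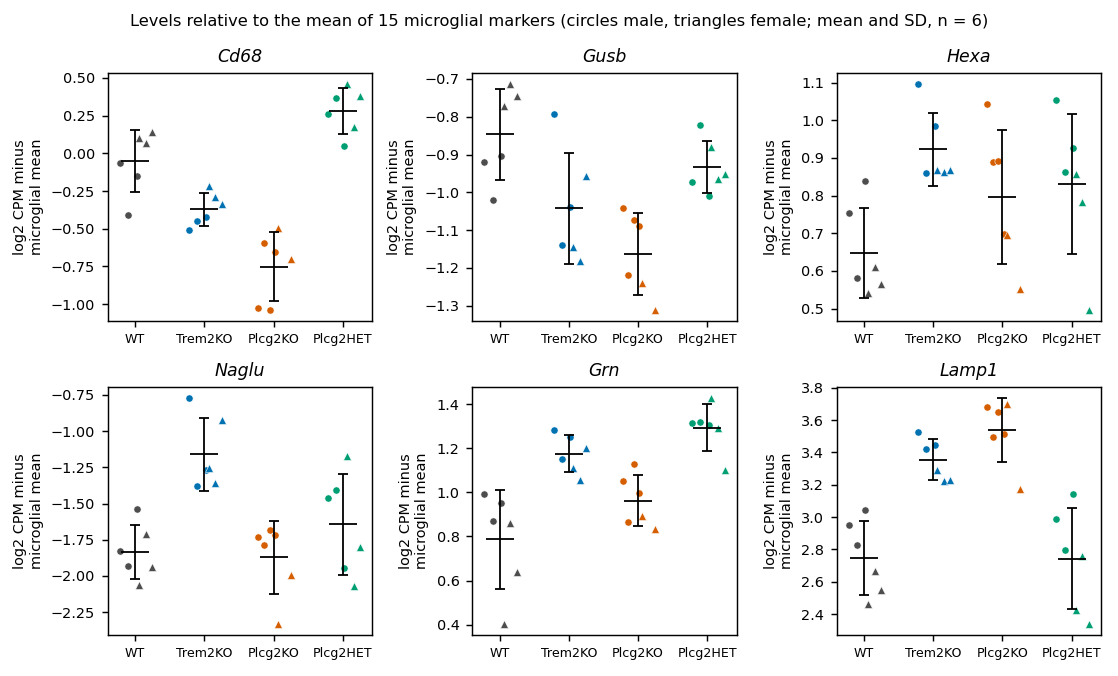
Log2(CPM + 0.5) of 6 lysosomal genes minus the mean of 15 microglial markers in the same library (vertical axes do not start at 0). Circles are males, triangles females, bars the mean and whiskers the SD of 6 libraries. Cd68 and Gusb in Plcg2KO lie below all WT libraries, and Lamp1 lies above them in both knockouts.

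The sexes were compared in WT for the 7 genes with the largest changes in either knockout. In WT, Cd68 ran from 37.9 to 53.1 CPM in males and 80.5 to 85.2 CPM in females, and Gusb from 24.6 to 29.1 and 46.0 to 46.6 CPM. Hexa ran from 75.8 to 94.1 CPM in WT males and 115 to 118 CPM in WT females, and Npc2 from 79.6 to 89.3 and 122 to 139 CPM. Naglu ran from 12.9 to 16.1 CPM in WT males and 18.5 to 23.2 CPM in WT females. In these 5 genes the 3 WT females lay above the 3 WT males. Outside the 7 genes the direction varied. Lipa and Fuca1, for example, also lay higher in WT females, while Psap, Ids and Arsb lay lower. The share of all genes that separate by sex in WT was not counted. The sexes overlapped in Grn, at 92.7 to 111 CPM in males and 104 to 140 CPM in females, and in Gaa, at 234 to 359 and 212 to 323 CPM. The microglial markers were also higher in WT females, with a mean log2 level of 5.59 to 5.81 in WT males and 6.27 to 6.31 in WT females. In Plcg2KO, Gusb overlapped between the sexes (13.5 to 15.96 CPM in 4 males, 13.3 and 17.9 CPM in 2 females). The difference between sexes in the effect of genotype was tested with edgeR's quasi-likelihood test of the interaction. None of the 37 genes was called for any of the 3 genotypes, where the share of all genes called was 0% each time. At an unadjusted p under 0.05 there were 5 genes for Plcg2KO, 2 for Trem2KO and 0 for Plcg2HET, and DESeq2 also called 0, with 9, 2 and 0 unadjusted. The smallest p was that of Npc2 in Plcg2KO, with a log2 fold change of -0.20 in males and -0.90 in females (difference -0.71, SE 0.21, adjusted p = 0.636).

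Other lysosomal genes were counted from lists for context. Over all genes tested against WT, 7.63% fell and 5.44% rose in Plcg2KO, and 8.16% fell and 7.56% rose in Trem2KO. Of 12 cathepsins, 8 fell in Plcg2KO and 7 in Trem2KO and 0 rose, with medians of -0.89 and -0.74. Ctsd, the aspartyl protease cathepsin D, stood at -1.22 (adjusted p = 8.58e-08) in Plcg2KO and -0.80 in Trem2KO, and Ctsz at -1.29 (adjusted p = 1.23e-07) and -0.98 (adjusted p = 9.34e-06). Ctse was near the floor in both knockouts, with at most 0.155 CPM in Plcg2KO and 0.321 in Trem2KO against 0.60 to 2.63 CPM in WT. Of 30 further hydrolases and cofactors, 6 fell and 1 rose in Plcg2KO and 1 fell and 1 rose in Trem2KO, the latter below the shares in all genes. Ctsa, the protective protein of beta-galactosidase, stood at -0.47 and the dipeptidyl peptidase gene Dpp7 at -0.71 in Plcg2KO, and neither was called in Trem2KO. Hgsnat, which acetylates heparan sulfate for Naglu, rose in Trem2KO (0.22, adjusted p = 0.0366).

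Of 28 other membrane proteins and transporters tested, 6 fell and 1 rose in Plcg2KO (7.63% and 5.44% of all genes) and 5 fell and 4 rose in Trem2KO (8.16% and 7.56%). Slc11a1, a metal ion transporter of phagocytes, stood at -2.04 (adjusted p = 1.05e-08) and -1.67 (adjusted p = 2.94e-07), and Slc15a3, a histidine and peptide transporter, at -2.25 and -1.43. Laptm5, a lysosomal transmembrane protein of immune cells, stood at -1.11 in Plcg2KO. Of 20 subunits of the proton pump that acidifies lysosomes, 2 fell and 0 rose in Plcg2KO and 3 fell and 2 rose in Trem2KO, counts near those shares, so nothing is read from them about the pump as a group. Those that fell in Plcg2KO were Tcirg1 (-1.24, adjusted p = 0.000113) and Atp6v0d2, which lay at 0.311 to 1.31 CPM in WT and at most 0.0535 CPM in Plcg2KO and 0.103 in Trem2KO. Atp6v1f (-0.34) was not called in Plcg2KO, and Atp6v1b2 rose in Trem2KO (0.47, adjusted p = 0.00355). Of 17 tested genes for enzyme sorting and TFEB-family regulators, 1 fell and 1 rose in each knockout, also near the shares in all genes. Tfeb stood at -0.62 (adjusted p = 0.0247) in Plcg2KO and 0.07 in Trem2KO, and Igf2r, the large mannose 6-phosphate receptor, at 0.41 (adjusted p = 0.046) and 0.48 (adjusted p = 0.017). M6pr, the small one, stood at -0.20 (adjusted p = 0.0391) in Trem2KO, and the retromer subunit gene Vps35 was not called in Plcg2KO (0.26).

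The spans of 11 of the 37 genes overlap another annotated gene, and no source used here gives the strand setting of the counting, so their reads can be shared. Among the 11 are Glb1 with Tmppe, Idua with Dgkq and Slc26a1, Npc1 with 3110002H16Rik, and Plbd2 with Sds. Arsa overlaps C230037L18Rik, Sgsh overlaps Card14 and Ppt1 overlaps Cap1. Lipa overlaps Gm38437 and small RNA genes. Scarb2 (Mir6415), Arsb (Mir5624) and Cln3 (Mir7059) each overlap a small RNA gene.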

How the data were processed

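Cortex RNA of 24 mice was measured as read counts per gene. The authors deposited whole-number counts for 24421 genes with exon coordinates in mm10, per the file headers. STAR 2.7.10a and featureCounts 2.0.3 are listed, with mm10, in the submitters' processing notes. The authors also deposited expected counts, TPM and FPKM, per the file headers. Expected counts, rounded, entered 1 alternative fit, and TPM and FPKM entered none. No source used here gives the strand setting or sequencing batches.

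From the deposited counts, genes were kept by filterByExpr with a minimum count of 10 (16316 genes). Counts were scaled by TMM and fitted with edgeR 4.0.16 in R 4.3.3 (robust quasi-likelihood, all 24 libraries, 1 mean per genotype and a sex term). Adjusted p-values are Benjamini-Hochberg over 16316 genes, and genes under 0.05 are called. The fit was tested on simulated data. Alternatives were DESeq2 1.42.0, RLE size factors, no sex term, no filter, a filter on mean CPM (minimum 1), a replicate block, each sex alone, 2 genotypes alone, offsets for GC content and exon length, expected counts, no Rn45s-rich libraries, and each library left out. No label says that replicate codes pair mice, and deviations of same-coded libraries correlated between -0.19 and 0.376, with values below 0.1 in every pair of genotypes, so the codes were not treated as pairs.

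The members and lists were chosen with earlier results of these data known. Named members are the up to 12 called ones with the largest change in either knockout against WT, up to 6 with the smallest p in each other comparison, and the 4 highest per kilobase. Of each other list, the 3 genes with the smallest p in Plcg2KO and the 2 in Trem2KO are named. A gene that this rule takes is not reported here. Further members are given to account for all 37. With mice as replicates, precision is set by 6 mice a group.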

Additional observations from a re-analysis of the deposited data

Results flagged for a closer look

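In 9 of 148 groups of 6 libraries, 1 library stood apart from the other 5 in the level of a lysosomal gene, its gap to the nearest, as a share of the group's range, passing Dixon's 95% critical value. Chance gives about 1 in 20 such groups. Galns was 13.8 CPM in Trem2KO F3 (others 9.11 to 10.6) and 6.2 CPM in Plcg2KO M1 (others 8.3 to 8.96). Arsb was 143 CPM in Trem2KO M2 (others 128 to 132) and 196 CPM in Plcg2KO F1 (others 127 to 144). Tpp1, the tripeptidyl peptidase lost in a childhood storage disease, was 82.3 CPM in Plcg2KO F1 (others 62.9 to 69.1) and 63.2 CPM in Plcg2HET M1 (others 74.7 to 82.4). Ppt1, a thioesterase, was 113 CPM in Trem2KO M2 (others 123 to 128). Fuca1, the fucosidase, was 37.1 CPM in Plcg2KO M2 (others 32.9 to 34.4). Arsa was 26.4 CPM in Plcg2KO F1 (others 32.8 to 35.4).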

How the results depend on the processing

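Counts of called lysosomal genes kept within 1.5 times of those reported under RLE size factors, no sex term, either change of filter, expected counts and DESeq2, in all 5 comparisons. Males alone gave 5 genes for Plcg2KO against WT, 0 for Trem2KO against WT, 0 for Plcg2HET against WT, 0 for Plcg2KO against Trem2KO and 11 for Plcg2KO against Plcg2HET, and females alone gave 8 (6 lower and 2 higher), 6 (3 and 3), 0, 0 and 11, with fewer samples in each fit. Fits on the 2 genotypes compared gave 1 gene for Plcg2HET against WT and 23 (21 lower and 2 higher) for Plcg2KO against Trem2KO, and the cause was not tested. Without libraries rich in Rn45s, Plcg2HET against WT gave 0 (edgeR). Offsets for GC content and length gave 6 for Plcg2KO against Trem2KO, where Arsa went from -0.26 to 0.0001. They turned Lamp2 in Plcg2KO against Plcg2HET from 0.09 to -0.19 (adjusted p = 0.0356). With each library left out, counts ran from 10 to 14 for Plcg2KO against WT, 7 to 11 for Trem2KO against WT, 3 to 14 for Plcg2HET against WT, 4 to 14 for Plcg2KO against Trem2KO and 17 to 22 for Plcg2KO against Plcg2HET. In Trem2KO against WT, the other hydrolases went from 2 called to 1 without the sex term and to 4 with offsets for GC content and length, and the sorting and TFEB list from 2 to 5 with the offsets, of which 4 were higher. The cause of these changes was not tested.

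With the replicate code as a block, the counts were 10, 9, 6, 6 and 19 in the same order of comparisons. Only the 6 for Plcg2KO against Trem2KO, against 13 without the block, lay outside 1.5 times. Same-coded libraries deviated together in some pairs and not in others, so the codes were not taken to pair mice.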
